A study of Homo sapiens with 6 samples.

Results

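The genes described here are the EGR and AP-1 immediate early genes: EGR1, EGR2 and EGR3, the FOS family genes FOS, FOSB, FOSL1 and FOSL2, and the JUN family genes JUN, JUNB and JUND. They were chosen by symbol, and all 10 were found among the 60605 genes with an Ensembl identifier in a table of 60780 rows. Transcripts were sequenced from LX-2, a human line of hepatic stellate cells, the pericytes of the liver sinusoid. The cells were cultured for 24 h in conditioned medium from HCT116 colorectal carcinoma cells. These HCT116 cells carried either the vector alone, giving Vector-CM (n = 3), or an FGFBP1 construct, giving FGFBP1-CM (n = 3). FGFBP1 is a secreted protein that releases fibroblast growth factors from the extracellular matrix, and the HCT116 cells were made with lentivirus. LX-2 is a single cell line, and the sources used here do not say whether replicates came from separate cultures, so the p-values measure only the spread between these libraries, which may be technical.

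Immediate early genes are transcribed soon after a growth factor or serum reaches a cell, without new protein synthesis, and in most cells their transcripts are short-lived. EGR proteins are zinc finger transcription factors that bind GC-rich DNA. AP-1 is a dimer of bZIP transcription factors, in which a FOS family protein pairs with a JUN family protein or JUN family proteins pair with each other. ERK signaling reaches EGR1 and FOS through serum response factor and its ETS partners at CArG boxes, and the study placed EGR1 between ERK and FAP, the gene of fibroblast activation protein. AP-1 activity is known to increase when stellate cells become activated. A single time was sampled, so any change that came and went before 24 h was not measured.

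Of the members, 8 of 10 matched RefSeq promoter windows (GRCh38.p14), in 10 windows because EGR2 has 3 start sites, and FOSL1 and EGR3 had no matching window. The 250 bases before each start were searched on both strands for the CArG box (a run of A and T between CC and GG), TGACG (the half-site of CREB and ATF proteins), TGACGTCA (the full site, which also counts as TGACG), TGACNTCA (an AP-1 site with a longer spacer, which includes TGACGTCA), TGANTCA (the AP-1 site), GCGNGGGCG (the EGR site) and TATAAA. The windows of EGR1, FOS, FOSB and JUNB are shown because these genes hold 4 of the 5 changes farthest from 0 in either direction below. Capitals mark CArG boxes and TGACG, which reads CGTCA where it lies on the other strand. Each sequence runs 5′ to 3′ toward the start, and 54 bases of the FOS window and 1 base of the FOSB window were left out because GENCODE 29 counts them as exon.
EGR1, chr5:138465229-138465478, plus strand: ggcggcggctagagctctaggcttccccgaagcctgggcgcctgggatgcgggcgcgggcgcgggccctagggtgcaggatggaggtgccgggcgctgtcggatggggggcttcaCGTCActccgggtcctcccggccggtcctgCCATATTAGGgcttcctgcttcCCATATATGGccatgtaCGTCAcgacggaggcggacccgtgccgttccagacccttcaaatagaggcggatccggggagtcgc
FOS, chr14:75278578-75278773, plus strand: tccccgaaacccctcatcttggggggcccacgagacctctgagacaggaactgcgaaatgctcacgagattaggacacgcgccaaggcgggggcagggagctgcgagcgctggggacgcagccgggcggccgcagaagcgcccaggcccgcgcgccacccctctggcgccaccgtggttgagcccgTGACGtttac
FOSB, chr19:45467746-45467994, plus strand: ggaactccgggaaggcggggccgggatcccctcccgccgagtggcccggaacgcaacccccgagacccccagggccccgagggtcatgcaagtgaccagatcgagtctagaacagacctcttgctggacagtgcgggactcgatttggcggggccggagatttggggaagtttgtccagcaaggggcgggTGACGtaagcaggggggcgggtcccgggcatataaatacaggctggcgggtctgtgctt
JUNB, chr19:12791236-12791485, plus strand: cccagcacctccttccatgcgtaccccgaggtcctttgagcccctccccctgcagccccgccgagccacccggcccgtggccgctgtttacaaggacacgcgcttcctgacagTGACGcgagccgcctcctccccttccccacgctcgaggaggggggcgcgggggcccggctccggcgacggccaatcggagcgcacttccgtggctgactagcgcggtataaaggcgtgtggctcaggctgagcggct

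EGR1 held 2 CArG boxes, which begin 105 and 83 bases before the start, and TGACG matches that begin 135 and 66 bases before it. The only other member with a CArG box in its window was EGR2, whose box begins 71 bases before 1 of its 3 starts. Bases more than 250 before a start were not searched, so a member without a match here can hold one farther away. CArG boxes occurred in 1.16% of the 35116 windows in the whole table. FOS and FOSB carried TGACG at nearly the same place, beginning 64 and 60 bases before the start, and JUNB carried it 137 bases before. TGACG was present in 8 of the 10 member windows, covering all 8 matched genes, and in 21.2% of all windows. TATAAA was found in FOS, FOSB and JUNB, beginning 33, 30 and 31 bases before the start, and in 10.7% of all windows. JUND alone held TGACGTCA, which 1.65% of all windows hold. JUN held TGACATCA, so JUN and JUND were the members with TGACNTCA, against 6.87% of all windows. GCGNGGGCG was found in EGR1 only, among the members, and in 8.41% of all windows, while no member window held TGANTCA, which 6.57% of all windows did. These matches describe letters in the windows and were not tested as sites.

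Total counts were 14003780 to 18508113 per library. FGFBP1-CM replicate 1 stood apart on the first principal component, which carried 43.5% of the variance, at 38.1 against 4.7 and 5 for the other FGFBP1-CM libraries and -18.3 to -12.9 for Vector-CM. Stellate markers were present, led by VIM and SPARC, although LRAT was at 0 in all 6 libraries and DES had 14 counts in all. ACTA2, HAND2 and THY1 were low too, with 436, 345 and 110 counts in all. COL1A1, COL1A2, COL3A1, PDGFRB and TIMP1 lay between these and SPARC. Of 10 stellate markers tested, 1 was called, TIMP1, lower in FGFBP1-CM, and the list summed to 3550 to 3820 CPM (a gene's count relative to the scaled library size) in Vector-CM and 2760 to 3290 in FGFBP1-CM. Of the 10 hepatocyte markers, 6 were tested and 4 of these were lower in FGFBP1-CM at an adjusted p under 0.05 (edgeR), and this count was 1 without Vector-CM replicate 3, 2 without Vector-CM replicate 2 and 6 without FGFBP1-CM replicate 2. Both limma fits called 0 of the 6, and DESeq2 set an adjusted p for 1 of the 10 markers and called it. Their summed level was 40.7 to 43.9 CPM in Vector-CM and 18.1 to 28.0 CPM in FGFBP1-CM. Most of this was SERPINA1, which was not called (adjusted p = 0.069, edgeR). The called markers were ALB, AFP, APOB and FGA, each at 4.38 CPM or less in every library. Over all tested genes 0.120% were called. Colorectal markers summed to 8.07 to 11.5 CPM over all libraries, mostly CLDN4, with CEACAM5 at 0 and CDX1 at 1 count in all. The part of these differences in the members' values was not tested. LX-2 is a single line, and its bulk libraries do not tell fewer expressing cells from less RNA per cell.

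The members differed by far more from each other than between media. FOSL1, which encodes FRA-1, had the highest level, 212 ± 12.1 FPKM (SD, n = 6), and sat at percentile 99.5 of the 16707 tested genes. FPKM, fragments scaled by gene length and library size, is the deposited scale that allows genes of different length to be compared. JUN, the main partner of FOS proteins, followed at 62.8 ± 2.43 FPKM, and FOSL2, which encodes FRA-2, at 27.4 ± 3.36 FPKM. FRA-1 and FRA-2 both lack the C-terminal transactivation domain of FOS. JUNB, a JUN protein of weaker transactivating activity, had 22.1 ± 3.36 FPKM, and JUND 7.51 ± 0.275 FPKM. EGR1 had 5.57 ± 1.46 FPKM and lay at percentile 58.3. Below these came FOS at 0.932 ± 0.208 FPKM, FOSB at 0.550 ± 0.118 FPKM, EGR2 at 0.257 ± 0.0456 FPKM and EGR3 at 0.218 ± 0.0259 FPKM (SD, n = 6). FOS, FOSB, EGR2 and EGR3 lay at percentiles 21.7, 14.4, 5.96 and 4.66 of the tested genes.

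**Figure D1:**
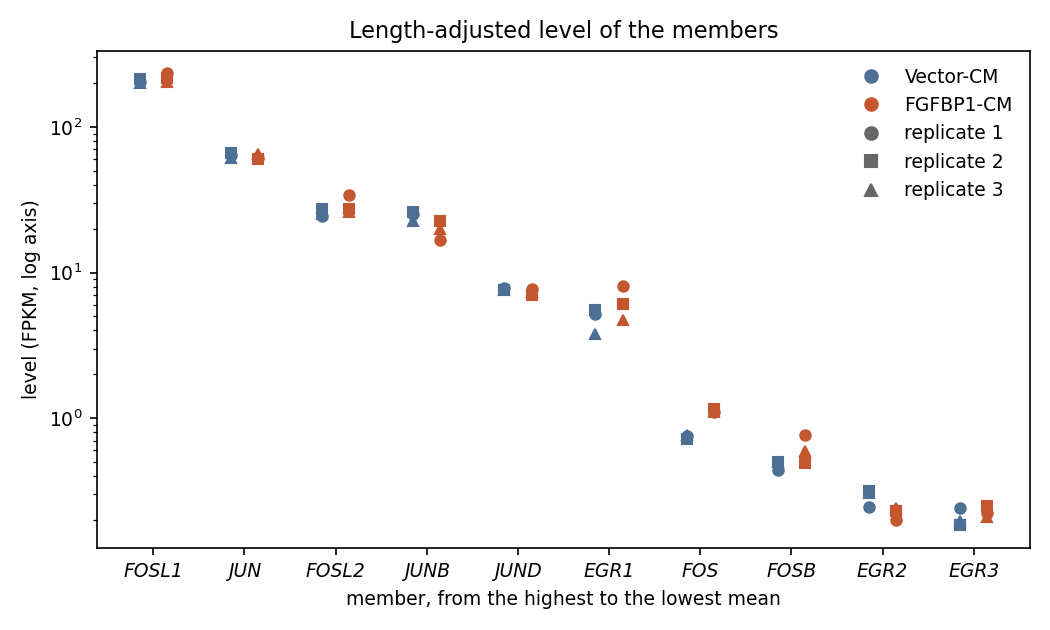
FPKM of each member (log axis) in each of the 6 libraries, with members ordered by their mean and Vector-CM drawn left of FGFBP1-CM. FOSL1 sits between 200 and 233 FPKM and EGR2 and EGR3 between 0.184 and 0.317 FPKM.

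Not every neighbor in this order was separated by its spread. The ranges over libraries of FOSL2 (24.6 to 33.9 FPKM) and JUNB (16.8 to 25.9 FPKM) overlapped, as did those of JUND (7.05 to 7.81 FPKM) and EGR1 (3.79 to 8.10 FPKM). FOS (0.717 to 1.16 FPKM) and FOSB (0.440 to 0.769 FPKM) overlapped too, although FOS was above FOSB in 6 of 6 libraries. EGR2 and EGR3 overlapped and EGR2 was the higher in 4 of 6 libraries. All other neighbors were separated in every library, the widest step being the 5.97-fold ratio of mean FPKM between EGR1 and FOS. By CPM, which ignores gene length, 4 of the 10 members kept their rank: EGR1 passed JUND, FOSB passed FOS and EGR3 passed EGR2.

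The FOS family pool was almost entirely FOSL1 and FOSL2. FOSL1 made up 86.7% to 88.8% of the summed FPKM of its family in the 6 libraries. FOS and FOSB together made up 0.518%, 0.506% and 0.557% of it in the Vector-CM libraries, replicates in order, against 0.696%, 0.676% and 0.733% in those of FGFBP1-CM. The share was therefore higher in every FGFBP1-CM library and stayed under 1% in all 6. Put as a ratio of FPKM, FOSL1 exceeded FOS 277 ± 18.0-fold in Vector-CM and 194 ± 14.7-fold in FGFBP1-CM (SD, n = 3). In the JUN family, JUN made up 66.1%, 66.3% and 67.0% of the summed FPKM in Vector-CM and 71.4%, 66.9% and 70.3% in FGFBP1-CM, so the groups overlapped. The ratio of JUN to JUNB was 2.60 ± 0.0954 in Vector-CM and 3.18 ± 0.492 in FGFBP1-CM (SD, n = 3), highest in FGFBP1-CM replicate 1 at 3.64. Summed FOS family FPKM over summed JUN family FPKM was 2.37, 2.42 and 2.48 in Vector-CM and 3.14, 2.74 and 2.52 in FGFBP1-CM. These ratios were not tested.

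Whether medium from FGFBP1-overexpressing cells changed these genes was asked in the edgeR quasi-likelihood test over all genes. All 10 members passed the filter on low counts. None of them differed at an adjusted p under 0.05 (edgeR), against 0.120% of the 16707 tested genes, or 20 genes. At an unadjusted p under 0.05, 2 of 10 members passed, FOS and JUNB, a share close to the 21.7% of all tested genes. DESeq2 likewise called 0 members, but it set no adjusted p for EGR2, EGR3, FOS and FOSB. Of the log2 fold changes, 6 were above 0 and 4 below, with a median of 0.06, beside a median of 0.00 over all tested genes. All 4 FOS family genes were above 0 and all 3 JUN family genes below 0, and none of these single changes passed. FOSL1 at 0.05, JUN at -0.08 and JUND at -0.09 lay close to 0. Over all tested genes 8472 of 16707 were above 0, and the split by family was not tested.

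**Figure D2:**
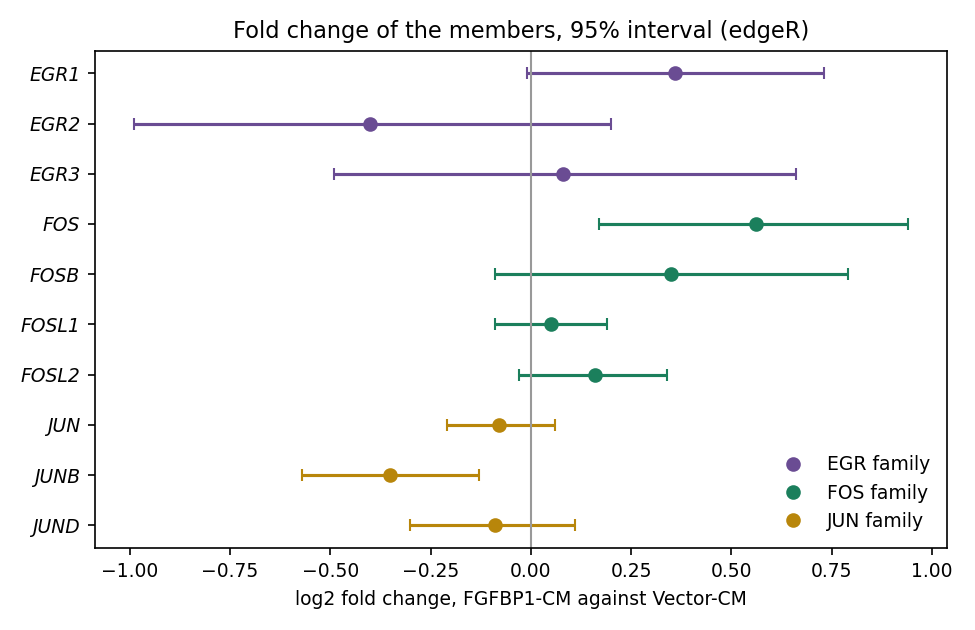
Log2 fold change of each member, FGFBP1-CM against Vector-CM, with points for the edgeR estimate, bars for its 95% interval and colors for the 3 families. Only the intervals of FOS (0.17 to 0.94) and JUNB (-0.57 to -0.13) leave out 0, and neither gene passed after adjustment.

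Between the media the levels of 4 members did not overlap, FOS on the higher side in FGFBP1-CM and EGR2, JUNB and JUND on the lower side. The groups failed to overlap for 26.0% of all tested genes, 12.8% on the higher side and 13.2% on the lower. Without FGFBP1-CM replicate 1 the same 4 members were separated, against 31.7% of all genes, and by FPKM 3 members were, since JUND then overlapped, against 26.3%. FGFBP1-CM replicate 1 was the highest library for 4 members (EGR1, FOSB, FOSL1 and FOSL2) and the lowest for 3 (EGR2, JUN and JUNB). It was likewise the highest or lowest library for 55.8% of all tested genes.

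**Figure D3:**
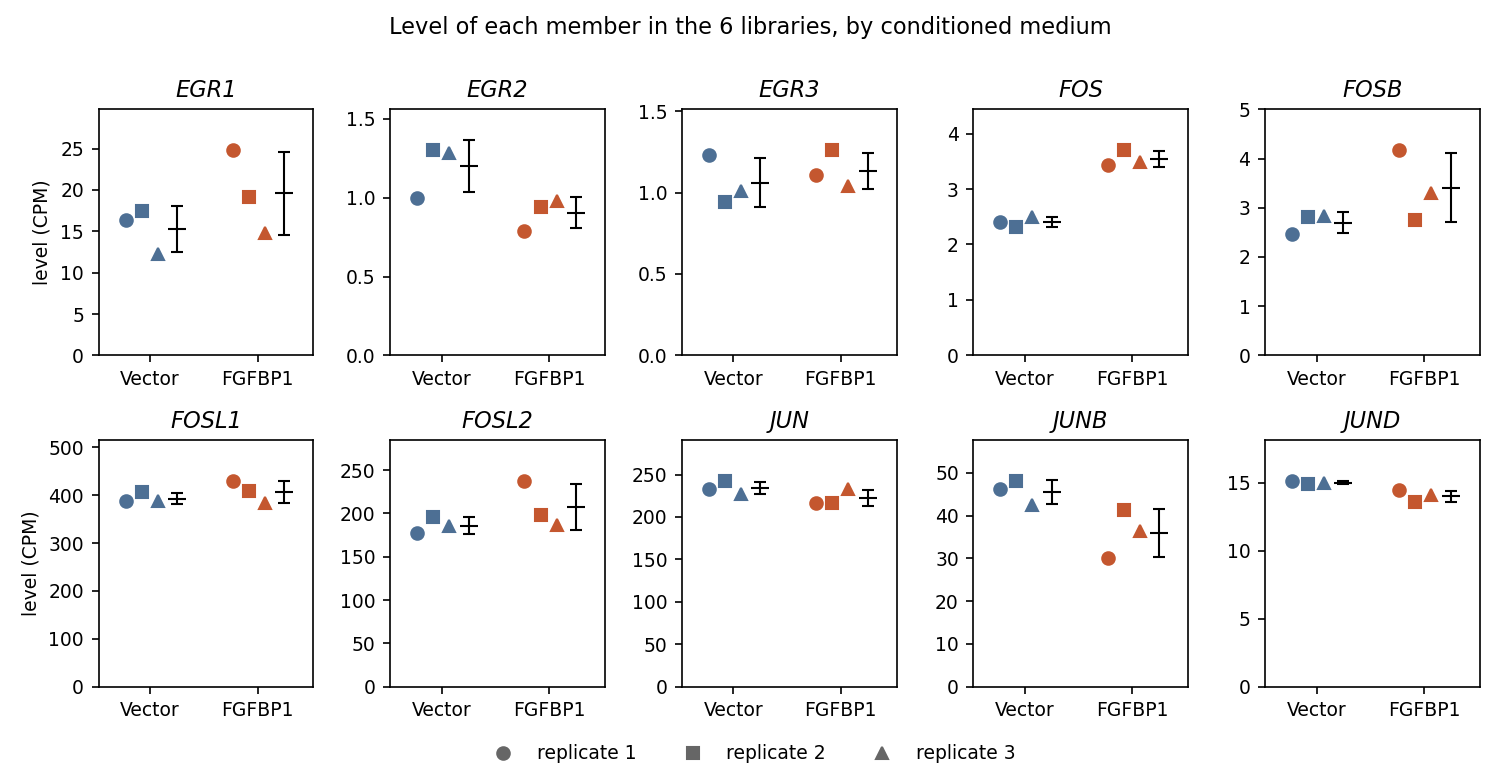
CPM of each member in every library, with 1 panel per gene, marker shapes for replicates 1 to 3, and a bar at the mean with its SD (n = 3) beside each group. FOS is separated by medium with little spread, while EGR1, FOSB and FOSL2 reach their highest value in FGFBP1-CM replicate 1.

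EGR1 (ENSG00000120738) lies on chromosome 5 at 138465490 to 138469315 on the plus strand, with 2 exon blocks and no exon shared with another gene (GRCh38, GENCODE 29). It is the member that the study links to FAP. Replicates 1 to 3 of Vector-CM held 293, 241 and 181 counts of EGR1, against 470, 306 and 242 counts for those of FGFBP1-CM. On the CPM scale these were 16.4, 17.4 and 12.2 against 24.8, 19.2 and 14.8. FGFBP1-CM replicate 3 lay below 2 of the 3 Vector-CM libraries, so the groups overlapped. The log2 fold change was 0.36 (SE 0.171; 95% interval -0.01 to 0.73; adjusted p = 0.241, edgeR), and the interval runs in fold terms from 0.994 to 1.66. EGR1 was also the most variable member, with a biological coefficient of variation of 13.8% in edgeR, above the 8.36% of the trend at its level. Its log2 fold change was 0.15 without FGFBP1-CM replicate 1 and 0.22 without Vector-CM replicate 3, and over all 16 alternatives it ran from 0.15 to 0.53. EGR1 passed in 1 of these, with no filter on low counts, at an adjusted p of 0.0308 (edgeR), where the whole table gave 1382 calls in place of 20.

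EGR2 and EGR3, which encode zinc finger proteins related to EGR1, were close to the lower limit of the data. EGR2 (chromosome 10, 62811996 to 62919900, minus strand, 10 exon blocks) had 18, 18 and 19 counts in Vector-CM and 15, 15 and 16 in FGFBP1-CM. Its levels of 1.00, 1.30 and 1.28 CPM against 0.791, 0.941 and 0.979 CPM did not overlap. The pooled counts, 55 against 46, give 1.18 CPM (95% exact Poisson interval 0.890 to 1.54) and 0.898 CPM (0.657 to 1.20), which overlap in counting error alone. EGR2 thus changed by -0.40 on the log2 scale, with an SE of 0.275, a 95% interval of -0.99 to 0.20 and an adjusted p of 0.427 (edgeR). EGR3 had 22, 13 and 15 counts in Vector-CM and 21, 20 and 17 in FGFBP1-CM, and its change of 0.08 (SE 0.266; adjusted p = 0.900, edgeR) has an interval of -0.49 to 0.66. Leaving out a single library moved the EGR3 value to between 0.01 (without Vector-CM replicate 2 or without FGFBP1-CM replicate 2) and 0.21 (without Vector-CM replicate 1).

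FOS (ENSG00000170345; chromosome 14, 75278774 to 75282230, plus strand, 3 exon blocks), the founding member of its family, had the log2 fold change farthest from 0 among the members in edgeR. It had 43, 32 and 37 counts in Vector-CM and 65, 59 and 57 counts in FGFBP1-CM. In CPM these were 2.40, 2.31 and 2.49 against 3.43, 3.70 and 3.49, and the lowest FGFBP1-CM library was above the highest Vector-CM library. Pooled, this was 2.40 CPM (95% exact Poisson interval 1.98 to 2.89) against 3.53 CPM (3.04 to 4.09), and these intervals did not overlap. They cover counting error only. They allow neither for the spread between libraries nor for the choice of FOS as the member farthest from 0. The log2 fold change was 0.56 (SE 0.177; 95% interval 0.17 to 0.94), a 1.47-fold difference with an unadjusted p of 0.00779 and an adjusted p of 0.111 (edgeR). The change was as large without FGFBP1-CM replicate 1, at 0.58. Leaving out each library in turn gave 0.52 to 0.58. In limma on log2(FPKM + 1), where the pseudocount is close to the level of FOS, the value was 0.28, below the sizes for EGR1 (0.32) and JUNB (-0.31). Over the 16 alternatives it ran from 0.28 to 0.59, and adjusted p over the 15 alternatives that set one ran from 0.10 to 0.285. It spread less than the trend for its level, with a biological coefficient of variation of 8.09% against 12.6%.

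FOSB (chromosome 19, 45467995 to 45475179, plus strand, 3 exon blocks), a close relative of FOS, had 44, 39 and 42 counts in Vector-CM and 79, 44 and 54 in FGFBP1-CM. Its levels were 2.46, 2.82 and 2.83 CPM against 4.17, 2.76 and 3.30 CPM. FGFBP1-CM replicate 2 lay inside the Vector-CM range, and replicate 1 was the highest of all. Its log2 change of 0.35 (SE 0.202; 95% interval -0.09 to 0.79; adjusted p = 0.334, edgeR) became 0.18 without FGFBP1-CM replicate 1. FOSB and FOS thus sat at like CPM levels, but FOS was separated by medium and FOSB was not. The difference between their changes was not tested.

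FOSL1 (ENSG00000175592; chromosome 11, 65892049 to 65900573, minus strand, 4 exon blocks) had 387, 407 and 387 CPM with Vector-CM against 429, 408 and 383 CPM with FGFBP1-CM. The FGFBP1-CM libraries held both the highest and the lowest value. Its log2 fold change was 0.05 (SE 0.0651; adjusted p = 0.707, edgeR), and the interval of 0.938 to 1.14 in fold terms bounds any change of this most abundant member. FOSL2 (chromosome 2, 28392448 to 28417312, plus strand, 7 exon blocks) had 177, 196 and 185 CPM with Vector-CM against 237, 198 and 187 CPM with FGFBP1-CM. Its log2 fold change was 0.16 (SE 0.0847; adjusted p = 0.305, edgeR) with all libraries and 0.05 without FGFBP1-CM replicate 1, the library at 237 CPM.

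JUNB (ENSG00000171223; chromosome 19, 12791496 to 12793315, plus strand, 1 exon block) had the lowest unadjusted p of the members. It had 827, 664 and 629 counts in Vector-CM and 569, 656 and 596 counts in FGFBP1-CM. These came to 46.2, 48.0 and 42.4 CPM against 30.0, 41.2 and 36.5 CPM, so each FGFBP1-CM library was below each Vector-CM library, with replicate 1 the lowest. The log2 fold change was -0.35 (SE 0.103; 95% interval -0.57 to -0.13), which is 0.786-fold, with an unadjusted p of 0.00484 and an adjusted p of 0.0961 (edgeR). It was -0.23 without FGFBP1-CM replicate 1 (adjusted p = 0.195, edgeR) and -0.46 without FGFBP1-CM replicate 2, where JUNB passed (adjusted p = 0.0269, edgeR). Dropping the filter also brought JUNB past the threshold (adjusted p = 0.00981, edgeR), and over its 16 alternatives the adjusted p ran up to 0.250. A 259 bp stretch of its exon is shared with HOOK2, a protein-coding gene on the opposite strand with 1976 counts over the 6 libraries. Whether counting used strand is not given in the sources used here, so reads of that stretch cannot be told apart.

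JUN (ENSG00000177606; chromosome 1, 58780788 to 58784327, minus strand, 1 exon block) had 233, 242 and 227 CPM with Vector-CM against 216, 217 and 233 CPM with FGFBP1-CM. The groups overlapped, and its log2 change of -0.08 (SE 0.0623; adjusted p = 0.501, edgeR) has an interval in fold terms of 0.864 to 1.04. JUND (chromosome 19, 18279760 to 18281622, minus strand, 1 exon block), the JUN gene least tied to growth factor induction, had 15.1, 14.9 and 15.0 CPM with Vector-CM against 14.5, 13.6 and 14.1 CPM with FGFBP1-CM. These did not overlap, but the log2 fold change was only -0.09 (SE 0.0956; adjusted p = 0.601, edgeR). Corrected for GC content and gene length together it was -0.001, and the cause of this shift was not tested.

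**Figure D4:**
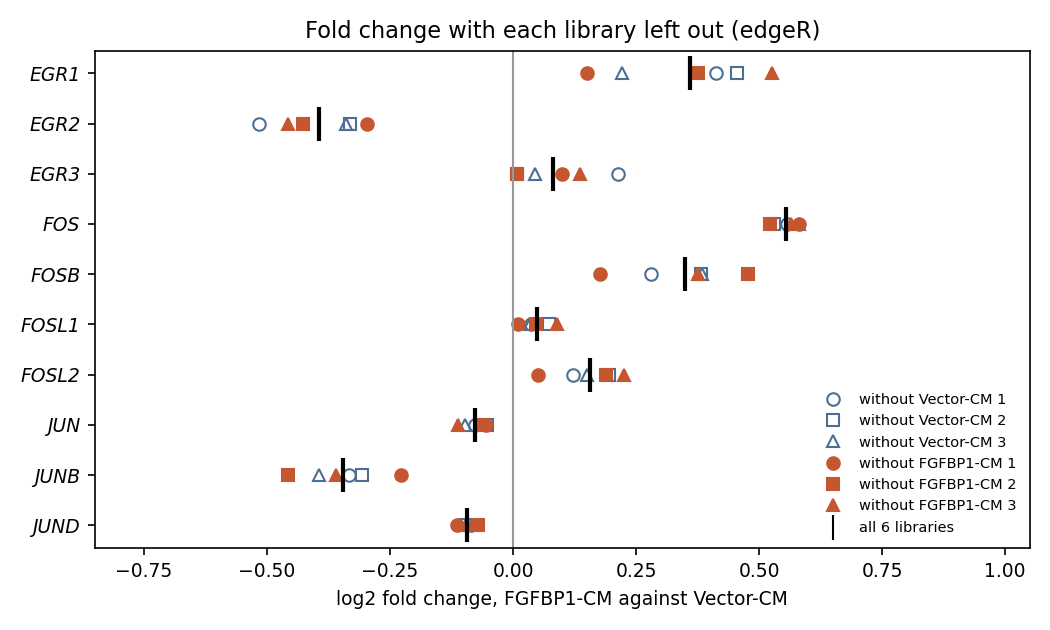
Log2 fold change of each member with all 6 libraries (black bar) and with each library left out (open blue symbols for Vector-CM, filled orange for FGFBP1-CM, shapes for replicates 1 to 3). EGR1, FOSB, FOSL2 and JUNB move toward 0 without FGFBP1-CM replicate 1, while FOS stays between 0.52 and 0.58.

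Across the 6 libraries the members fell into different patterns, given here as descriptions over points that share library, depth and scaling. FOSL1 and FOSL2 varied together, with a Pearson r of log2 CPM of 0.93, and 0.85 without FGFBP1-CM replicate 1. EGR1 followed FOSL1 (0.90, or 0.75 without that library) and FOSL2 (0.84, or 0.54). FOSB and FOSL2 had an r of 0.85 that was 0.31 without that library. The lowest r among member pairs were those of FOS with JUND (-0.92, or -0.97 without that library) and FOSB with JUNB (-0.93, or -0.77). FOS and JUND were each separated by medium in CPM, so their r includes the difference between media. Among 9881 other tested genes with a mean of at least 10 CPM, those most like EGR1 were MOB3A, ARPIN, UTP23, C19orf47 and SH3PXD2B. Their Pearson r of log2 CPM with EGR1 ran from 0.989 to 0.997 over 6 libraries and from 0.975 to 0.995 without FGFBP1-CM replicate 1. They were picked by that r, so high values follow from the choice, also over fewer of the same libraries. Their own log2 fold changes were 0.11 to 0.20, and none passed (adjusted p of 0.333 to 0.470, edgeR).

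Genes around the members were taken from 7 lists with 77 tested genes, of which 1 was higher and 1 was lower in FGFBP1-CM at an adjusted p under 0.05 (edgeR), against 0.120% of all genes. An unadjusted p under 0.05 was found for 28 of the 77, or 36.4%, against 21.7% of all genes. The lists were chosen with earlier results of these data known, so these shares were not tested against each other. Of 12 transcription factors upstream of immediate early genes none was called, and their median log2 fold change was -0.02, beside 0.00 over all genes. The highest were MRTFB, a coactivator of serum response factor, at 0.17 (adjusted p = 0.197, edgeR) and MEF2A at 0.12. The lowest were MEF2D at -0.19 (adjusted p = 0.143, edgeR) and ELK1, an ETS partner of serum response factor, at -0.15. Of 9 JNK pathway genes, whose kinases phosphorylate JUN, none was called, with a median of -0.04. MAP2K4 was at 0.28 (adjusted p = 0.0715, edgeR), MAP3K1 at 0.04, MAP2K7 at -0.26 and the scaffold gene MAPK8IP3 at -0.27 (adjusted p = 0.0818, edgeR). The kinase genes MAP2K4 and MAP2K7, which act at the same step, thus had changes of opposite sign, neither past the threshold.

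Of 11 tested genes for other bZIP partners of AP-1 none was called, with a median of -0.05. BATF2 was at 0.61 (adjusted p = 0.213, edgeR) from 191 counts in all, and ATF4, the amino acid response factor, at 0.23 (adjusted p = 0.141, edgeR). The stress-induced ATF3 was at -0.23 (adjusted p = 0.198, edgeR) and MAFK at -0.22. NAB1 and NAB2, which encode corepressors that bind EGR proteins, were at -0.16 and -0.14, and WT1, which binds sites like those of EGR1, was at -0.05. EGR4 had 1 count in all and was not tested. Of these genes of EGR regulation, then, 0 of 3 tested passed.

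Of 21 other immediate early genes none was called, 4 had an unadjusted p under 0.05, all lower, against 21.7% of all genes, and the median log2 fold change was -0.13. KLF4, a zinc finger factor, was at -0.41 (adjusted p = 0.0995, edgeR) and the nuclear receptor gene NR4A2 at -0.40. At the other end its relative NR4A3 was at 0.23 (adjusted p = 0.523, edgeR) and IER2 at 0.17. In this list 5 of 21 changes were above 0, beside 8472 of 16707 over all tested genes.

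Of 12 tested AP-1 target genes 1 was called. TIMP1, the inhibitor of matrix metalloproteinases, averaged 335 ± 16.2 CPM with Vector-CM against 258 ± 4.53 CPM with FGFBP1-CM (SD, n = 3). Its log2 change was -0.38 (adjusted p = 0.0465, edgeR). The call was lost without any single Vector-CM library, at adjusted p of 0.0762, 0.176 and 0.242 without replicates 1, 2 and 3. The call was also lost by library size only (0.0563), at a mean of at least 1 CPM (0.0543) and in the limma fits (0.185 and 0.176). The heme oxygenase gene HMOX1 was at 1.74 (adjusted p = 0.0557, edgeR), with 181, 52.2 and 78.1 CPM in FGFBP1-CM replicates 1 to 3 against 29.1 to 34.1 CPM in Vector-CM. Without FGFBP1-CM replicate 1 its log2 fold change was 1.06, and it then passed (adjusted p = 0.000484, edgeR), as it did without FGFBP1-CM replicate 2 (2.06) or 3 (1.91). MMP3, stromelysin, was at 0.80 (adjusted p = 0.0961, edgeR), while IL6 was at -0.29. The list median was -0.02.

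Of 9 tested EGR1 target genes 1 was called, FAP, whose mean was 1.75 ± 0.470 CPM with Vector-CM against 39.6 ± 10.5 CPM with FGFBP1-CM (SD, n = 3). The log2 change of FAP was 4.52 (adjusted p = 7.98e-07, edgeR). FAP is in the list because the study names it, so it is not independent evidence of direction. It kept its call without each library, including FGFBP1-CM replicate 1 (4.39). The study's link from EGR1 to FAP rests on EGR1 protein, its move into the nucleus, its binding to the FAP promoter and EGR1 knockdown. It also rests on blocking FGF2, FGFR1 or ERK, after which EGR1 and fibroblast activation protein were lower. None of these is measured by transcript levels at 24 h. Of the other EGR1 targets only F3, tissue factor, was above 0, at 0.02, and the list median, FAP included, was -0.29. At an unadjusted p under 0.05 (edgeR), FAP was higher and 5 of the 9 genes were lower, against 21.7% of all tested genes in either direction. The fibronectin gene FN1 was at -0.57 (adjusted p = 0.0568, edgeR) and PDGFB at -0.46. Of the 10 stellate markers tested, 9 were below 0 as well, beside 8235 of 16707 over all tested genes. Whether these changes share a cause was not tested.

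**Figure D5:**
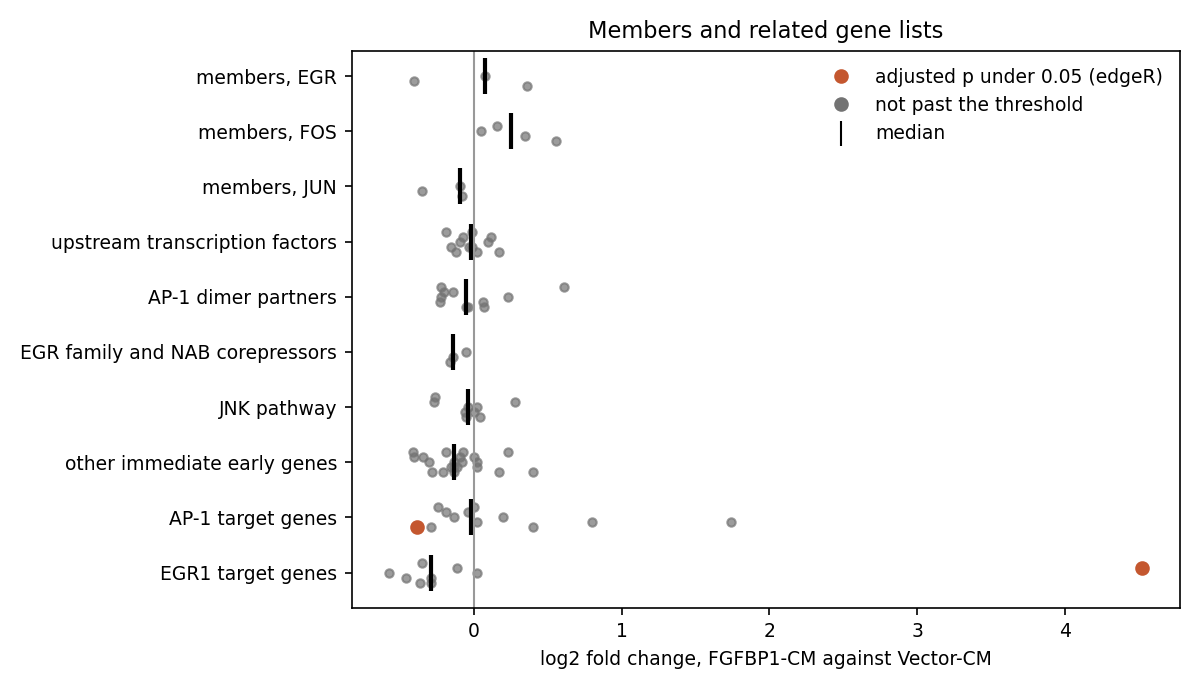
Log2 fold change, FGFBP1-CM against Vector-CM, of each tested gene in the member families and the 7 related lists, with black bars at list medians and orange points for genes past an adjusted p of 0.05 (edgeR). FAP at 4.52 and TIMP1 at -0.38 are the 2 genes past the threshold, and the members lie between -0.40 and 0.56.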

How the data were processed

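RNA was sequenced from 6 LX-2 libraries, 3 per medium, with groups and replicate numbers from the labels. Paired-end reads were aligned by the authors in HISAT2 2.0.5 and assigned to genes in featureCounts 1.5.0-p3, and the resulting raw count table was deposited. The authors also deposited FPKM, from the count and the gene length. The submitters' processing notes name hg18, while the identifiers match GENCODE 29 (GRCh38), from which coordinates are taken and which need not be the annotation used for counting. Library preparation is described with both poly(A) selection and ribosomal RNA depletion, and strandedness is not given in the sources used here.

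Counts were tested with edgeR 4.0.16 in R 4.3.3: filterByExpr, TMM scaling and the quasi-likelihood F-test over 16707 genes, with Benjamini-Hochberg adjustment and a threshold of 0.05. The 175 rows without an Ensembl identifier were not removed before the fit, so any that passed the filter are among the tested genes. Members and list genes were taken only from rows with an Ensembl identifier. The SE is the log2 fold change divided by the square root of F, and 95% intervals use the t distribution. CPM comes from the TMM-scaled library sizes. Total counts ran from 14003780 to 18508113, and a count of 0 allows 3 counts, or 0.158 to 0.217 CPM. Poisson intervals and this floor cover counting error only.

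The members and lists were chosen with earlier results of these data known, so no list was tested. All members are named. From each list the called genes and the 2 highest and 2 lowest log2 fold changes among genes of at least 1 CPM are named, and the 5 genes of at least 10 CPM with the highest r with EGR1. Where another gene is named, it was chosen after its values were seen. The fits were repeated with RLE scaling, with library size only, without a filter, with a mean of at least 1 CPM, DESeq2 1.42.0, limma 3.58.1 on log2(FPKM + 1) and log2(FPKM + 0.1), a replicate block, a loess correction (span 0.3) for GC content and length, that correction with the block, and leaving out each library. The procedures were tested on simulated data.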

Additional observations from a re-analysis of the deposited data

How the results depend on the processing

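The direction of all 10 members was kept in all 160 member values under the alternatives, and 157 of these also kept their side of the threshold or had no adjusted p (4 in DESeq2). With no filter on low counts 2 members passed, EGR1 (log2 fold change 0.37, adjusted p = 0.0308, edgeR) and JUNB (-0.33, adjusted p = 0.00981, edgeR), and the whole table gave 1382 calls. There edgeR estimated no spread of the dispersions around their trend, with infinite prior degrees of freedom against 9.32. JUNB also passed without FGFBP1-CM replicate 2 (-0.46, adjusted p = 0.0269, edgeR). With a library left out the number of members past the threshold was 0 to 1, that of all genes 4 to 883 (against 20), and JUNB's log2 fold change -0.46 to -0.23. Calls in the whole table numbered 38 with RLE scaling, 11 at a mean of at least 1 CPM, 580 in DESeq2, 1 in each limma fit and 47 with the GC and length correction. By CPM 4 of 10 members kept their FPKM rank. FOS, FOSB, EGR2 and EGR3 had 79 counts or fewer per library, and the effect of depth on their tests was not measured. The cause of these shifts was not tested.

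Replicate numbers were not taken to pair the libraries: deviations of same-numbered libraries correlated at -0.12, -0.02 and 0.15 over 15033 genes. With the replicate block the table gave 90 calls, or 251 together with the GC and length correction, and no member passed in either.

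List medians, which carry no test, moved by more than their spread between replicates in 23 of 112 cases. The upstream factors (-0.02) were at 0.0128 by library size only, 0.0101 and 0.0116 in limma on log2(FPKM + 1) and log2(FPKM + 0.1), -0.0724 with the GC and length correction and -0.0735 with the block added. The AP-1 partners (-0.05) were at -0.0085 in limma on log2(FPKM + 1), -0.113 with the correction and -0.119 with the block added. The JNK pathway (-0.04) was at -0.0083 by library size only, 0.0014 and 0.0161 in the limma fits, -0.0223 with the block, -0.0882 with the correction and -0.071 with both. Leaving out libraries gave -0.0619 to -0.0034 for the upstream factors, -0.139 to 0.0003 for the AP-1 partners, -0.0751 to 0.0044 for the JNK pathway and -0.153 to -0.0721 for the other immediate early genes.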
